A study of Mus musculus with 15 samples.

Results

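The Musashi genes Msi1 and Msi2 were examined for acetylation of histone H3 at lysine 27 (H3K27ac), a chromatin mark of active promoters and enhancers. The sample was a tumor from a mouse model of fusion-positive rhabdomyosarcoma (FP-RMS). The series held 15 libraries made by CUT&RUN, an assay in which an antibody directs a nuclease to cut out the DNA around its target. There were 6 H3K27ac and 3 IgG libraries from MCP tumors, which carry Myf6-Cre, and 3 H3K27ac and 3 IgG libraries from TCP tumors, which carry Tek-Cre. Both models share the other alleles of the label, namely Cdkn2a(Flox/Flox), a floxed tumor suppressor, Pax(3P3F/P3F), the conditional fusion of Pax3 with Foxo1 (P3F), and the tdTomato reporter R26-tdTom. They differ in the promoter that drives Cre, that of the muscle factor Myf6 or that of the endothelial receptor Tek. Only the peaks called in MCP H3K27ac replicate 5 were analyzed here, so no value below has a replicate and no comparison with TCP was made. For that reason no p-value is given, and intervals cover counting error only.

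Members were all peaks that overlapped the RefSeq span of Msi1 or Msi2, or the 100 kb on either side, in mm10. The rule took 296 of the 122375 peaks of the list (0.242%), of which 241 lay at Msi2 and 55 at Msi1. Msi2 was chosen by a measured value, the number and density of the peaks in it, so its count and density are given as a description and not as a result. Each peak has a fold enrichment, which sets the fragments over its summit, scaled between the libraries, against the local IgG background. The same small constant is added to both, so the fold enrichment is lower than the plain ratio. Each peak also has a -log10 q, the significance of that enrichment after adjustment for multiple testing. Whole numbers of fragments over each summit were recovered from these columns. Over the list the median was 13 fragments, 84.2% of the peaks had fewer than 20, and the fewest was 7, so weaker acetylation is not listed.

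Musashi proteins bind messenger RNAs through a pair of RNA recognition motifs and control their translation. They are known for keeping stem and progenitor cells undifferentiated, in part by repressing translation of Numb, an inhibitor of Notch signaling, and Msi2 is known for its part in blood stem cells and leukemia. Msi1 is the form best known from neural and epithelial stem cells, and Msi2 is expressed more widely. Dense runs of H3K27ac over long introns are commonly read as clusters of enhancers, although acetylation alone does not show which gene an element acts on.

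The cell type of the label was first set against its markers. Of 10 myogenic genes, only Myf6, whose promoter drives Cre in the model, had a promoter peak, and the muscle regulators Myod1, Myog and Myf5 had no peak in their spans. Of the 10 endothelial genes none had a promoter peak, against 1 of 10 immune and 2 of 10 neural genes. The immune gene was Cd68 and the neural genes were the progenitor genes Sox2 and Nes. Away from promoters, 4 of the 10 endothelial genes had peaks in their spans, 25 in all. Tek held 14 (fold enrichment up to 9.53), Pecam1 and Erg 4 each and Cdh5 3. The peak of Myf6 was the only one in a myogenic span. A count grows with the span, and these 4 endothelial genes have longer spans than Myf6, so the counts cannot be compared directly. The 4 of 10 endothelial genes stand against 49.3% of all protein-coding genes with a peak summit in the span. Of the 10 neural genes, 4 also had peaks in their spans, 22 in all. Among all 21000 protein-coding genes with a curated start site, 45.6% had a peak within 2 kb of one. Among the peaks called in this library, these markers thus did not bear out a muscle identity. Of the 10 myogenic genes 1 had a promoter peak, a share below the 45.6% of all genes. An endothelial identity was not borne out either, as none of those 10 genes had a promoter peak. The list holds only peaks past its threshold, so acetylation of these genes is not shown to be absent. Enhancers outside the promoters and spans were not counted. For MCP tumors the study reports MYOD1 and MYOGENIN protein in focal areas, with variation between tumors.

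Msi2 lies on the minus strand of chromosome 11 at chr11:88339382-88718306 in mm10 and spans 379 kb. RefSeq gives it 3 curated start sites close together, and a long noncoding RNA gene, C030037D09Rik, starts 0.34 kb upstream in the opposite direction. The 221 bases before every annotated start, chr11:88718307-88718527, are shown because acetylated peaks lie on both sides of them. The sequence is from RefSeq for GRCm38.p6, on the minus strand, and capitals mark matches to 2 of the 13 motifs searched:
Msi2 promoter: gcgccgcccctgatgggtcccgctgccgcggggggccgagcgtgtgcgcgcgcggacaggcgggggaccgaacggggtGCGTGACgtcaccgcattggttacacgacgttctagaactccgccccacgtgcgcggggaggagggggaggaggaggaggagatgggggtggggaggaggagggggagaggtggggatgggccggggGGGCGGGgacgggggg
This promoter was rich in G and C (75.6%) with 26 CpG dinucleotides, where the median of 32851 RefSeq promoters over the same 221 positions was 52.0% and 5 CpG. Bases 79 to 85 match GTCACGC on the other strand, the core bound by the paired domain of PAX proteins, which 1.5% of these promoters hold. Bases 206 to 212 match GGGCGGG, an SP/KLF site, which 19.8% hold. Both motifs hold a CpG, and both shares are over all these promoters and not over those as rich in CpG. The shares therefore do not show how rare such a match is at like composition. These matches describe the letters and were not tested for binding.

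There were 5 promoter peaks, those within 2 kb of a curated start site. All 5 also lay within 2 kb of the start of C030037D09Rik, so acetylation of the 2 promoters cannot be told apart here. The strongest, 665 bp wide at chr11:88716238-88716902, had its summit 2.00 kb downstream of the first start site with 21 fragments (exact Poisson 95% interval 13.0 to 32.1) and a fold enrichment of 9.53. A neighbor at 1.18 kb had 19 fragments and a fold enrichment of 8.67, and a narrow peak at 0.609 kb had 16 fragments and a fold enrichment of 5.05. On the upstream side, at 0.881 kb, a peak held 20 fragments at a fold enrichment of 9.10. The last, 1.25 kb upstream, held 10 fragments at a fold enrichment of 4.54. No peak covered the sequence above, and the intervals of the 4 peaks with 16 to 21 fragments overlapped. The peaks called at this shared promoter region were thus split over both sides of a CpG-rich gap. Over these 5 peaks the median was 19 fragments at a fold enrichment of 8.67, against 13 and 4.89 over the whole locus.

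**Figure D1:**
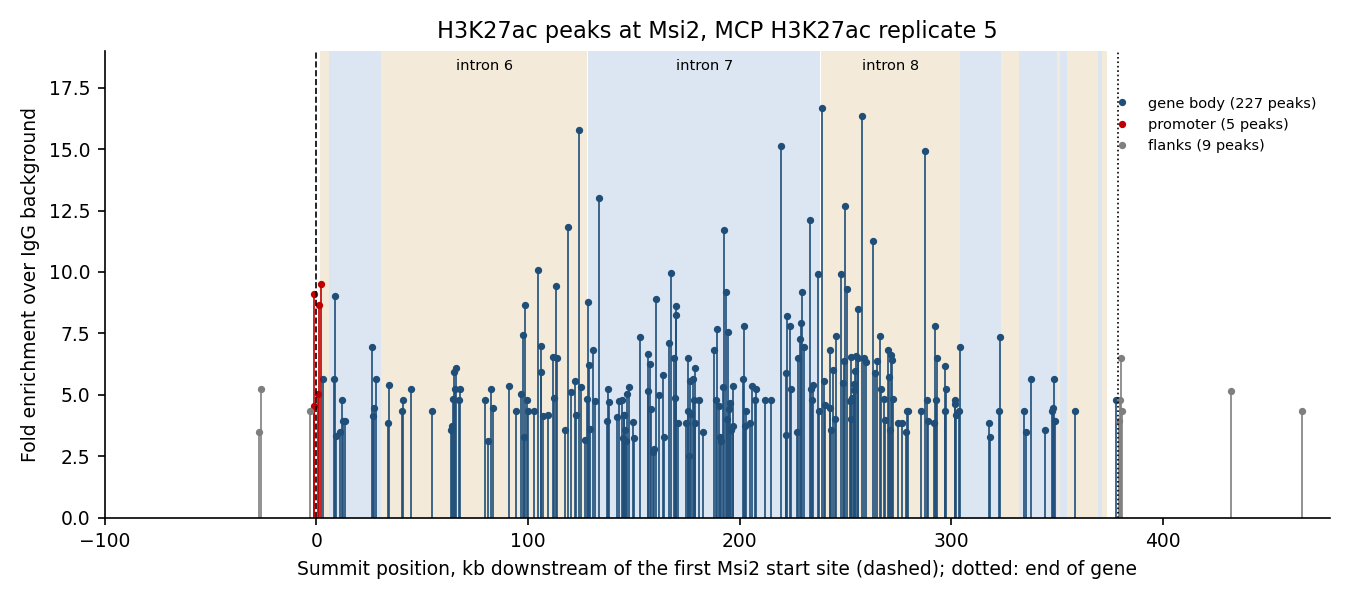
H3K27ac peaks at Msi2 in MCP H3K27ac replicate 5. The x axis gives the summit position in kb from the first start site, the y axis gives the fold enrichment over the IgG background, each line is 1 of 241 peaks, and shading marks the introns of the longest RefSeq transcript. Peaks crowd introns 6 to 8, where the fold enrichment reaches 16.7, while the 9 flank peaks stay at or below 6.51.

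Peaks of Msi2 were then divided along the RefSeq transcript with the longest span, which has 17 exons and 16 introns. Introns 1 to 3 lie within the promoter window. Intron 7, of 110 kb, held the most peaks with 95, which is 8.64 per 10 kb (6.99 to 10.6). Intron 8, of 66.0 kb, held 61, or 9.24 per 10 kb (7.07 to 11.9). Density in intron 6, of 97.7 kb, was 4.60 per 10 kb (3.36 to 6.16) with 45 peaks, and its interval did not reach those of introns 7 and 8. These intervals treat neighboring peaks as independent. The median gap in the gene body was 0.280 kb, so they may be too narrow, and the difference was not tested. Together introns 6 to 8 held 201 of the 241 peaks (83.4%, Wilson 95% interval 78.2 to 87.6), and peaks covered 31.0% of their 274 kb.

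Per 10 kb the promoter window, of 4.05 kb, was the densest part of the locus at 12.3 (4.01 to 28.8), an interval that takes in those of introns 7 and 8. Fewer peaks lay in the remaining introns. Intron 5 held 11 peaks (4.49 per 10 kb) and intron 11 held 8 (4.49 per 10 kb), but the strongest peak of intron 11 had a fold enrichment of 5.65 against 9.02 in intron 5. Intron 9 held 4 peaks, introns 4 and 14 held 1 each, and introns 10, 12, 13, 15 and 16 held none. The only exonic peak, at chr11:88340257-88340368 in the last exon, had 10 fragments. Outside the gene, 6 peaks lay in the 3′ flank, most of them just beyond the gene's end, and 3 in the 5′ flank. These are 0.600 and 0.306 peaks per 10 kb, against 0.794 over all of chromosome 11 and 0.449 over the genome. In the gene body the density was 6.07 per 10 kb (5.31 to 6.91), against 1.26 (1.0 to 1.5) in the megabase beyond the 3′ end and 0.450 (0.328 to 0.602) in the megabase beyond the 5′ end. The 100 kb on either side thus held few peaks, whereas the megabase beyond the 3′ end was denser than chromosome 11 as a whole.

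**Figure D2:**
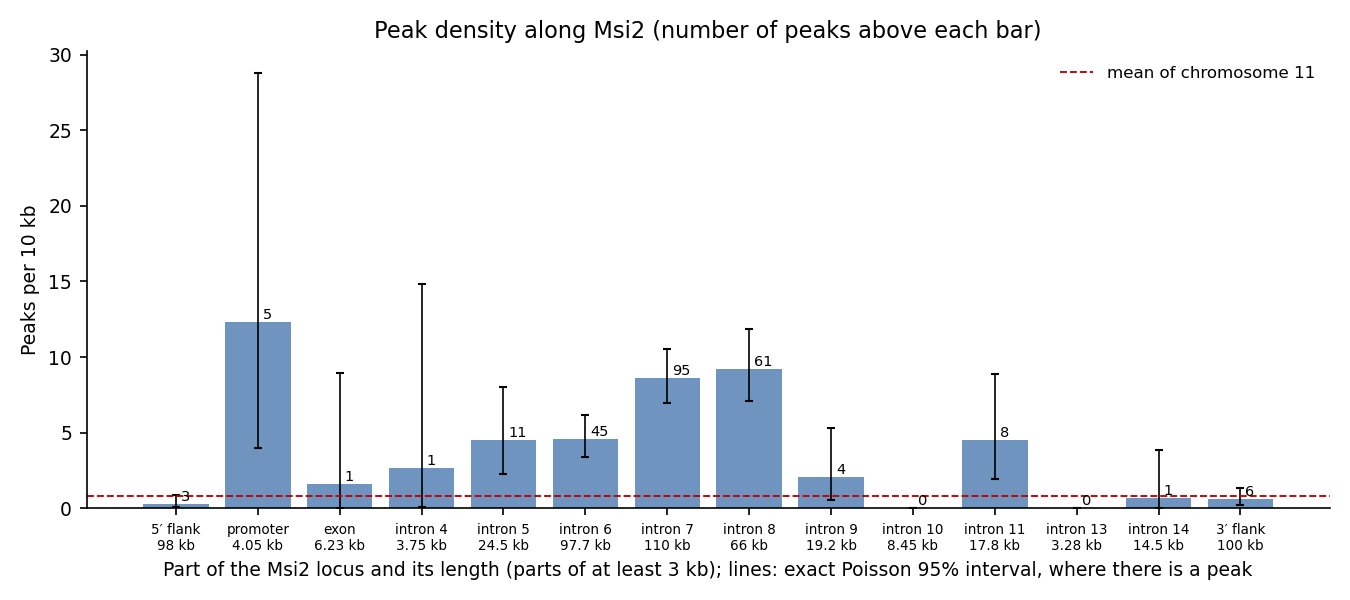
Peak density along Msi2 in MCP H3K27ac replicate 5. Bars give peaks per 10 kb of each part of the locus of at least 3 kb, in the order of transcription with all exons pooled after the promoter, lines are exact Poisson 95% intervals, and the dashed line is chromosome 11 at 0.794. The 2 densest introns, 7 and 8, stand at 8.64 and 9.24 per 10 kb, and both flanks lie at or below 0.600.

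In steps of 20 kb from the first start site, the number of peaks fell from 11 in the first step to 4 at 40 to 60 kb, rose to 25 at 240 to 260 kb and fell to 1 at the end of the gene. The covered share was highest at 240 to 260 kb, 61.5%, and at 160 to 180 kb, 58.5%. Between them, at 200 to 220 kb, it was 20.3%. The called peaks were therefore not evenly spread across the dense introns.

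The 4 windows of 300 bp below are centered on summits among the 5 strongest peaks of Msi2. They are shown because these intronic peaks, rather than the promoter, carry the highest fold enrichments of the gene. Each is the plus strand of mm10, read 5′ to 3′, with matches to the motifs searched in capitals:
Msi2 peak 1, intron 8, chr11:88479011-88479310: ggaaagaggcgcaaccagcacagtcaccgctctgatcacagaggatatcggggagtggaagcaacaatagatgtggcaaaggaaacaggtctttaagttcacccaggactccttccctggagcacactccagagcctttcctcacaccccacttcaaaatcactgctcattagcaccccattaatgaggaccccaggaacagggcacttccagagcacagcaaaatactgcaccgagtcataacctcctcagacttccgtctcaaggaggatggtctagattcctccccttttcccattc
Msi2 peak 2, intron 8, chr11:88460349-88460648: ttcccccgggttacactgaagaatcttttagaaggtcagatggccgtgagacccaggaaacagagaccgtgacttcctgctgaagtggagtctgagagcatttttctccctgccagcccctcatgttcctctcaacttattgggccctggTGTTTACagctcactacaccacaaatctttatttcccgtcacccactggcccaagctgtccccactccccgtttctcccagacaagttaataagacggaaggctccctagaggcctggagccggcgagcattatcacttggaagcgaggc
Msi2 peak 3, intron 6, chr11:88593990-88594289: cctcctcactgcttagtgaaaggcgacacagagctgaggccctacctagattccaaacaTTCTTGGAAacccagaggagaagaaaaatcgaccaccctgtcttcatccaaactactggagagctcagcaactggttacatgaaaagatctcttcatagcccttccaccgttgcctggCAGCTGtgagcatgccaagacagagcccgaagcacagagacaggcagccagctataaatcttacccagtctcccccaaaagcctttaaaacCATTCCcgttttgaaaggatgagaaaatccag
Msi2 peak 5, intron 8, chr11:88430518-88430817: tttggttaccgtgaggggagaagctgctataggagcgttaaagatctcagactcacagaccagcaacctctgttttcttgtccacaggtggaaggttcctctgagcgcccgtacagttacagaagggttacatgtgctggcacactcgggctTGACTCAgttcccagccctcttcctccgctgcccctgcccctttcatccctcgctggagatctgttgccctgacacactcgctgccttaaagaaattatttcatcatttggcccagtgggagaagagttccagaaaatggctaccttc
The strongest peak of the locus, at chr11:88478866-88480084, was 1219 bp wide and ran from intron 8 over the exon before it into intron 7. It had 39 fragments (27.7 to 53.3), a fold enrichment of 16.7 and a -log10 q of 33.4, in place 291 of the whole list by fold enrichment. Its window held none of the motifs. The second, at chr11:88459618-88461439 and also in intron 8, had 39 fragments and a fold enrichment of 16.4. Its window held TGTTTAC, a forkhead motif, starting on the summit base.

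The third strongest peak, at chr11:88593454-88595117 in intron 6, was 1664 bp wide with 36 fragments (25.2 to 49.8) and a fold enrichment of 15.8. Its window held a STAT motif 91 to 83 bases before the summit, the E-box CAGCTG 27 to 32 bases after it and a TEAD motif (CATTCC) 118 to 123 bases after it. CAGCTG is the E-box that myogenic factors such as MyoD bind. The fourth, in intron 7 at chr11:88496840-88499204, had 34 fragments and a fold enrichment of 15.1, and its window held no motif of the set. The fifth, at chr11:88429794-88432087 in intron 8, had 42 fragments (30.3 to 56.8), a fold enrichment of 14.9 and an AP-1 motif, TGACTCA, 2 to 8 bases after the summit. The intervals of all 5 overlapped, so their order is not resolved at this depth.

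The next 5 had fold enrichments of 11.7 to 13.0 and lay in introns 6, 7 and 8, so none of the 10 strongest peaks was at the promoter. The sixth was the widest of the locus, 5160 bp at chr11:88581175-88586334 in intron 7, with 43 fragments over its summit. At Msi2 14 of 241 peaks (5.81%, 3.49 to 9.51) were at least 1500 bp wide against 1.73% of the whole list, and all 14 lay in introns 6 to 8. The share was 4.76% (11 of 231) at the locus of Phlpp1, the other gene with a dense cluster of this size, which is within the Msi2 interval.

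In strength, the peaks of Msi2 were close to those of the whole list. Their median fold enrichment was 4.89 (95% interval of the median 4.79 to 5.22) against 5.22 in the whole list, their median number of fragments was 13 in both, and 27.4% (22.1 to 33.3) were among the strongest 25% of the list by -log10 q, which with ties held 25.4%. At least 20 fragments lay over 19.1% of them (14.6 to 24.5) against 15.8% of all peaks. The IgG background under their summits had a median of 1.2 fragments and a maximum of 5.00, between 1.09 over all peaks and 1.32 over chromosome 11. The part that DNA copy number plays in the peak number was not tested.

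Set against other genes, Msi2 had more peak summits in its span, 230, than any of 21774 protein-coding genes, of which 49.3% had at least 1. The next were Phlpp1, a phosphatase that acts on AKT, with 200 in 222 kb, and Dst, a cytoskeletal linker, with 176 in 401 kb. A count grows with the span, and per 10 kb Msi2 stood at place 940 of all these genes and at place 21 of the 2427 genes of at least 100 kb, whose median was 0.288. Just above it were Mprip, which binds myosin phosphatase (6.25 per 10 kb), the laminin gene Lamc1 (6.24) and the septin gene Septin9 (6.21). Just below it were Fam53b (5.90), the collagen-modifying enzyme gene P3h2 (5.87) and the perlecan gene Hspg2 (5.79). The spans of these 6 genes, 102 to 163 kb, are shorter than that of Msi2. Among 540 genes with a span within 1.5 times its own, Msi2 was the densest, and their median was 0.143 per 10 kb. On chromosome 11 it was in place 4 of 116 long genes. Msi2 was picked for the number and density of its peaks, so these places are a description and not a result.

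**Figure D3:**
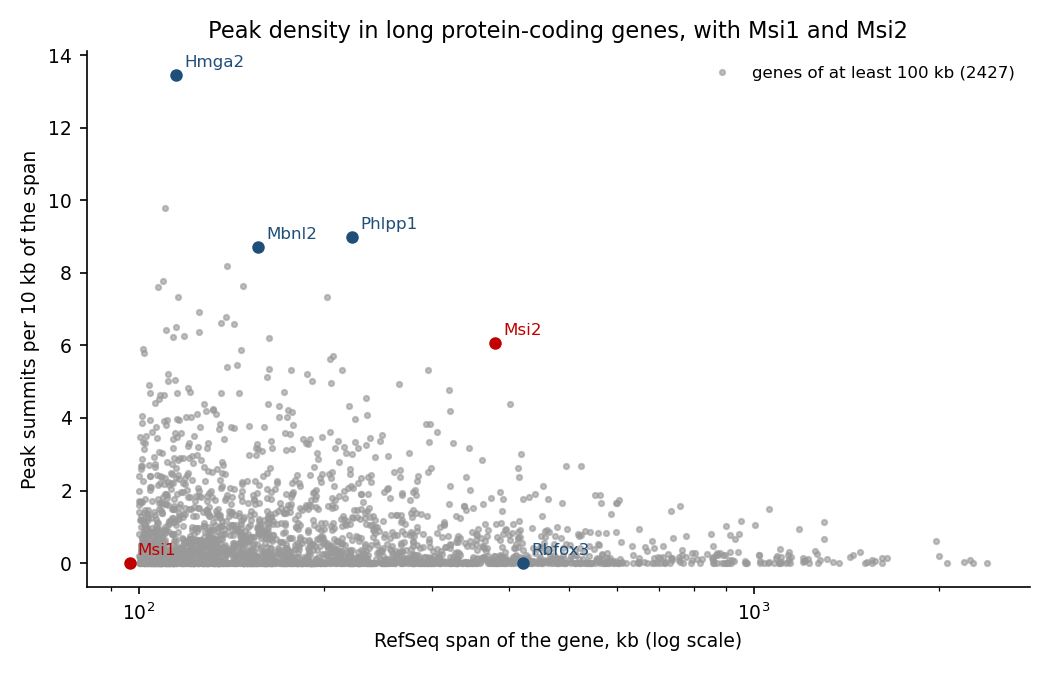
Peak density in long protein-coding genes in MCP H3K27ac replicate 5. The x axis is the RefSeq span in kb on a log scale, the y axis is the number of peak summits per 10 kb of the span, and each point is a gene. Msi2, which was picked for its dense peaks, stands at 6.07 per 10 kb over 379 kb, above genes of like length. Msi1 is at 0.

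Peaks wholly within 1 kb of a start site were left out and the others were joined at the stitching distance that the study used for super-enhancers, which gave 20840 clusters. The cluster over Msi2 had 202 peaks over 278 kb, from chr11:88414279 to chr11:88691986, which is from the 3′ end of intron 8 into intron 5. By summed fold enrichment times width it was in place 2 of all clusters, with Phlpp1 the only one above it (225 peaks over 265 kb). A high place follows from the choice of Msi2 for its dense peaks and is a description. The clusters in places 3 to 5 lay over Nemf, Arf6 and Vcpkmt, over Nek7 and over Fndc3b, with 130, 91 and 102 peaks. Msi2 also overlapped 3 small clusters, of 13, 11 and 5 peaks. That of 13 lay inside the gene, that of 11 ran past its 5′ end and that of 5 past its 3′ end.

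Joining within 2 kb split the span of Msi2 into 40 islands, of which 12 were lone peaks and 15 had at least 5 peaks. The longest, 45.2 kb with 52 peaks at chr11:88445812-88491039, ran from intron 8 across an exon into intron 7 and was in place 5 of all such islands by summed fold enrichment times width. An island of 18 peaks over 20.7 kb at chr11:88579980-88600676, which spans the junction of introns 6 and 7, was in place 24. Joining within 1 kb gave 61 islands, so the number of blocks depends on the joining distance. Whether acetylation ran on between the called peaks was not tested, since weaker acetylation is not listed.

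All 5 promoter peaks of Msi2 also lay at the start of C030037D09Rik, and few other peaks in Msi2 lay at start sites of other genes. The noncoding RNA gene 0610039H22Rik, inside intron 6, had 6 peaks at its start, with a fold enrichment of up to 8.67. Gm11510, a pseudogene in intron 8, had 2 near its start, which include the fifth strongest peak described above. Mir378b, a microRNA gene in intron 14, had none. Of the 241 peaks, 11 (4.56%) lay at a curated start site, those of Msi2 and 0610039H22Rik, against 21.9% in the whole list. Gm11510 has no curated start site and is not counted there.

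13 motifs of transcription factors were counted within 150 bp of the 230 summits of Msi2 away from promoters, and beside them over all 95604 distal peaks of the list. Both strands were searched for CAGCTG (E-box), TGANTCA (AP-1), CATTCC (TEAD), TGTTTAC (forkhead), GTCACGC (PAX paired core), TGTGGTT (RUNX), CCGGAAG (ETS), GGGCGGG (SP/KLF), TTCNNNGAA (STAT), ACAATG (SOX), CCACNAGG (CTCF), a PAX homeodomain dimer and MEF2. AP-1 motifs were at 22 of the summits (9.57%, Wilson interval 6.40 to 14.1) against 15.9% of all distal peaks, and the interval held the 13.5% of those on chromosome 11. Among distal peaks of at least 20 fragments, AP-1 motifs were at 7 of 43 at Msi2 (16.3%) against 16.7% of all such peaks. For the other motifs the interval at Msi2 held the share of all distal peaks. TEAD motifs were at 20.0% against 17.3%, SOX motifs at 14.8% against 16.3% and E-boxes at 12.2% against 15.0%. PAX paired cores were at 3 summits and PAX homeodomain dimers at 3 other summits, 1.30% each, against 0.745% and 1.41%. The Msi2 windows were richer in G and C, with a median of 47.8% against 44.3% over all distal peaks. Shares were not matched for composition, and the 13 intervals were not adjusted for their number. With 230 peaks of 1 locus, of which 34 had windows that overlapped another, these shares describe the locus and were not tested.

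**Figure D4:**
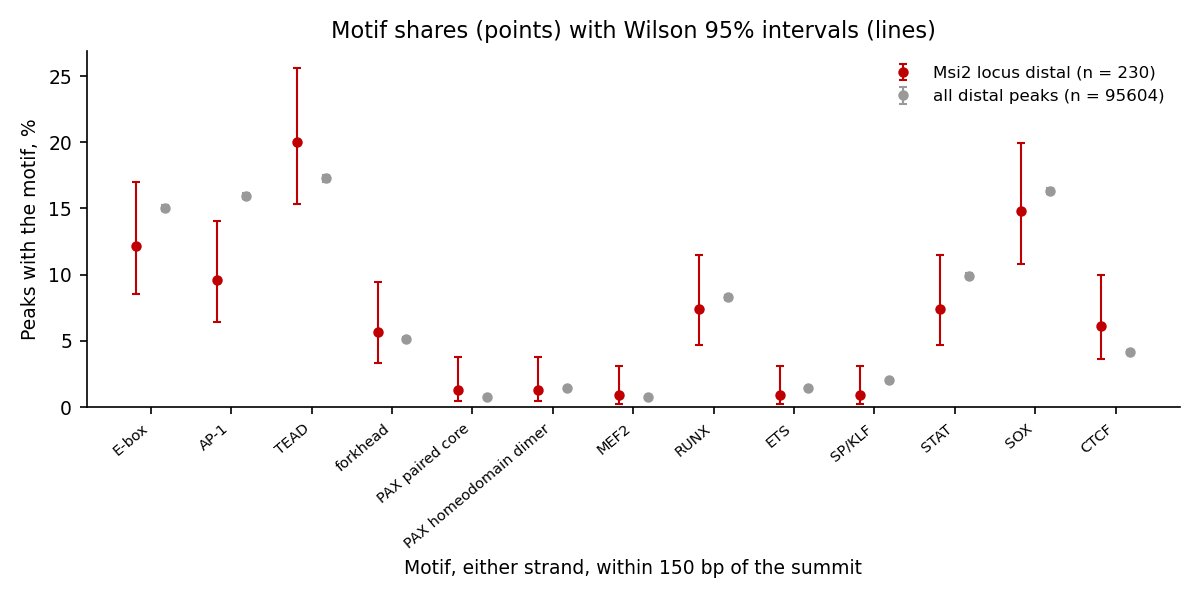
Motif shares in peaks away from promoters in MCP H3K27ac replicate 5. Points give the percentage of peaks with the motif on either strand within 150 bp of the summit, at Msi2 (230 peaks) and in the whole list (95604 peaks), with Wilson 95% intervals. Only AP-1, at 9.57% against 15.9%, has an interval at Msi2 that leaves out the share of all distal peaks, and that interval holds the chromosome 11 share of 13.5%.

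Msi1 was the opposite case. It lies on the plus strand at chr5:115359059-115455698 and spans 96.6 kb, counting predicted exons upstream of its 2 curated start sites. No peak lay in its promoters, exons or 12 introns. The nearest peak to a curated start site was 47.5 kb away, and the nearest to the span ended at 115340822, with its summit 18.5 kb upstream. The gap between peaks over the gene was 143 kb, while the median gap within the Msi2 gene body was 0.280 kb. Peak numbers in the list run on across the Msi1 gap, so no numbered peak is missing there, but 4 numbers are absent in the 3′ flank.

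An empty span of this length was not unusual. Among 2361 genes with a span within 1.5 times that of Msi1, 73.4% had at least 1 summit in the span and 627 (26.6%) had none. The lowest densities above 0 were those of Nek1, Lgr5 and St6gal1, with 1 peak each. Since the list holds only peaks past its threshold, it shows that no enrichment was called at Msi1, not that acetylation was absent.

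The 55 peaks of the Msi1 locus lay at its neighbors. Of the 42 in the 3′ flank, 41 lay in Pxn, which encodes the focal adhesion adaptor paxillin, and 1 in Sirt4. The strongest, 781 bp at chr5:115493483-115494263, had 25 fragments (16.2 to 36.9) and a fold enrichment of 10.7, and the next 8 had fold enrichments of 7.80 to 8.67. In the 5′ flank, 8 of 13 peaks were at promoters of other genes, among them Rnf10, Coq5, Dynll1, the splicing factor gene Srsf9 and the mitochondrial genes Gatc and Triap1, with fold enrichments of 3.28 to 7.37. Cox6a1 and Pla2g1b, the coding genes on either side of Msi1, had no promoter peak. The noncoding genes 4930401G09Rik and A930005G22Rik, which start beside the 5′ end and the curated start of Msi1, had none either.

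**Figure D5:**
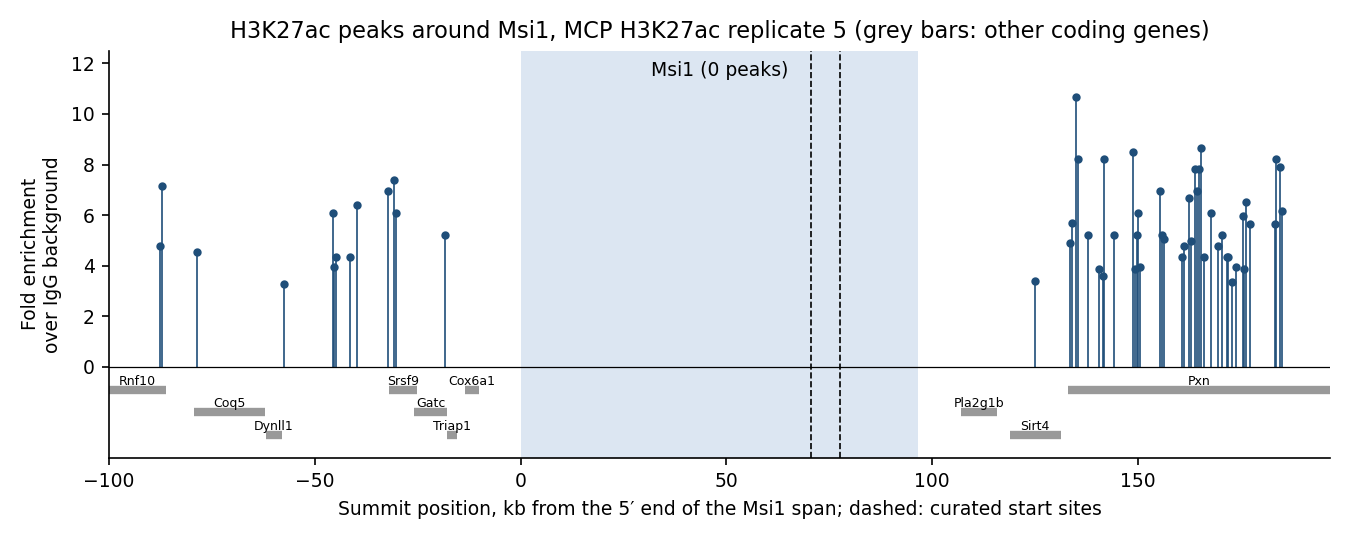
H3K27ac peaks around Msi1 in MCP H3K27ac replicate 5. The x axis gives the summit position in kb from the 5′ end of the Msi1 span, the y axis gives the fold enrichment over the IgG background, and grey bars mark other coding genes. The shaded span of Msi1 holds 0 peaks, and 41 of the 42 peaks on the right lie in Pxn.

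At the edges of the 100 kb windows, the outermost peaks of Msi2 lay 13.3 and 73.0 kb inside the limits, with fold enrichments of 4.36 and 3.47. The nearest ones outside lay 2.93 and 33.1 kb beyond, with fold enrichments of 10.5 and 3.28. For Msi1 the outermost peaks inside had fold enrichments of 4.79 and 6.17, and those outside had 4.79 and 4.46, 20.4 and 4.51 kb beyond the limits.

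Genes related to Musashi were counted for a promoter peak beside the background of 45.6%. All 9 relatives with a like pair of RNA recognition motifs had one (Wilson interval from 70.1%). Per 10 kb of the span, peaks were densest at Hnrnpab (10.3), which encodes a nuclear RNA-binding protein, and sparsest at Dazap1 (1.85). Of 12 genes whose transcripts Musashi proteins are known to bind or regulate, 8 had a promoter peak (39.1 to 86.2%). Hoxa9, a homeobox gene, was densest at 11.7 per 10 kb, and the Notch inhibitor gene Numb had 6 peaks in its span with a promoter peak, while Mos and Robo3 had no peak. Among 5 partners in translation, 4 had a promoter peak (37.6 to 96.4%). Eif4g1, a scaffold of translation initiation, was densest at 4.96 and the stem cell gene Lin28a sparsest at 0.630 per 10 kb. The intervals of the 12 targets and of the 5 partners both hold the background of 45.6%.

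Of 29 other RNA-binding protein genes of development, 21 had a promoter peak (72.4%, 54.3 to 85.3). Mbnl2, a splicing regulator of muscle, was densest with 136 peaks in 156 kb (8.72 per 10 kb), above Msi2. Of the 29, Cpeb1, Cpeb2, Elavl3, Elavl4 and Rbfox3 had no peak. The neuronal members differed among themselves, since Elavl2 held 28 peaks with fold enrichments of up to 17.5, above that of any Msi2 peak, and Rbfox1 held 3. Rbfox3 spans 422 kb on the chromosome of Msi2, where 28 of 116 genes of at least 100 kb (24.1%) had no peak summit in their span. These lists were small and are read against the background as a description.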

How the data were processed

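Live cells were sorted from dissociated tumors, and CUT&RUN libraries were made from their nuclei with antibodies to H3K27ac or with IgG. Per the methods of the study, reads were mapped to mm10 with bowtie, reads in problematic regions were discarded, and peaks were called with MACS against the matching IgG library. The processing notes of the submitters list BWA, SAMtools and MACS2, where the methods name an earlier version of MACS. Which aligner and which version of the caller made the list is thus not known here. Its threshold may differ from the one the study states. The list was matched to MCP H3K27ac replicate 5 by the number in its peak names and in the sample's label. The fold enrichment is a ratio that the authors' caller computed for each summit, and the deposited -log10 p and -log10 q values are the caller's own. Here they served to describe and order peaks and to set thresholds. No other library was analysed here.

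Fragments were recovered by solving fold and p together for a whole number, with 1 scale of 0.885 between the libraries. The formula solved adds 1 to the scaled fragments and 1 to the background before dividing. This solved 100.0% of the peaks within 0.01 in -log10 p, and 96.8% had only 1 solution. They are inferences and not read counts, and without molecular identifiers some may be copies of the same molecule. On data simulated with the same formula the step returned the true number for 99.98% of peaks. That checks the solving only, and not whether the deposited values follow the formula.

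The genes and gene lists were chosen with earlier results of these data known. Spans and start sites came from RefSeq for GRCm38.p6 (31603 curated start sites). A promoter was 2 kb either side of a curated start site, and other peaks were assigned by summit. Introns were those of the transcript with the longest span, the most exons and the lowest accession. Intervals are exact Poisson or Wilson at 95%. Genes named besides the members were the neighbors in each window, the densest and sparsest of each list, the 3 above and below Msi2 in density or cluster score, and the 10 strongest peaks of each locus. Phlpp1, Dst and the single markers and list members named beyond these were added after their values were seen. Python 3.11 with numpy, scipy and pandas was used. The alternatives were other flanks, peak thresholds, promoter windows, introns, stitching distances and motif windows.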

Additional observations from a re-analysis of the deposited data

How the results depend on the processing

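Of 59 values under alternative settings, 40 stayed within the counting interval or within 1.5 times the value reported, and 19 moved. With only peaks of -log10 q of at least 5, or only the strongest 25%, Msi2 kept 114 or 66 of its 241 peaks and Msi1 29 or 17 of 55. The share of Msi2 peaks in introns 6 to 8 was then 88.6% or 90.9%, and the share of genes like Msi1 without a peak 34.8% or 44.9%. Msi1 had 0 promoter peaks under all 4 alternatives, but each of these could only remove peaks, so that outcome was fixed in advance. These 4 values are among the 40 that stayed. Msi2 had 3 promoter peaks within 1 kb and 3 among the strongest 25%. A flank of 50 kb left Msi1 with 19 peaks. Among genes of chromosome 11 alone Msi2 was in place 4, and among genes of chromosome 5 like Msi1 28.7% had no peak. A stitching distance of 5 kb left 89 peaks in the largest Msi2 cluster, which was still in place 2. Windows of 200 bp and of 100 bp left 0 motifs whose interval leaves out the share of all distal peaks, with 14 and 6 AP-1 matches at Msi2 in place of 22, while the ratio of the AP-1 shares was 0.687 and 0.637 against 0.601 with 300 bp. On the curated transcript, an alternative chosen after seeing the data, the introns that match introns 6 to 8 held 88.0%, because its intron 5 takes in more sequence. Leaving out peaks within 2.5 kb of start sites and windows that do not overlap were also added after seeing the data, and moved neither the cluster's place nor the AP-1 ratio.

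No paired analysis was possible because only 1 library was analyzed. With a median of 13 fragments a peak, neighbors in any order of strength mostly overlap in their intervals, and spread between tumors is unknown.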
